A study of Mus musculus with 16 samples.

Results

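SmoM2-expressing basal cells from the interfollicular epidermis (IFE) of mouse tail skin were compared with and without β-catenin, 4 weeks after tamoxifen. The comparison rests on 5 of the 16 arrays of the series. Those with β-catenin loss (n = 2) came from K14CREER/Rosa-SmoM2-YFP mice that also carried b-cat flox/flox alleles, and those with SmoM2 alone (n = 3) from K14CREER/Rosa-SmoM2-YFP mice. Tamoxifen was given to both, and SmoM2-positive cells were collected by flow cytometry from tail skin of a mixed strain background. Cells of untreated K14CREER/Rosa-SmoM2-YFP mice (n = 3) were read beside them as controls, and SmoM2 cells at 10 weeks (n = 2) served to choose one set of genes. The recombinase is driven in keratin 14 expressing cells, and it opens the β-catenin and SmoM2 alleles in the same cells; how many sorted cells had lost β-catenin was not read. No array had β-catenin loss without SmoM2, so an effect on the SmoM2 response and an effect of the loss by itself cannot be told apart. The labels give no ages, and do not say whether each replicate was its own mouse or a pool. The p-values therefore measure a spread between arrays that may be technical.

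β-Catenin, encoded by Ctnnb1, has a pair of roles. At adherens junctions it ties cadherins to the actin cytoskeleton through α-catenin. When Wnt ligands stop the destruction complex of Axin, Apc and glycogen synthase kinase, it accumulates, enters the nucleus and binds Tcf/Lef factors to switch on target genes, and in skin this arm starts the embryonic hair placode and hair growth. SmoM2 is a constitutively active form of Smoothened, the membrane protein that passes the hedgehog signal to the Gli transcription factors, and its expression in epidermis is used as a model of basal cell carcinoma. The comparison asks which part of the expression programme of SmoM2 cells differs when β-catenin is removed at the same time.

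For every gene the probe set with the highest mean signal was used, and differences are given as β-catenin loss minus SmoM2 alone in log2 units ± SE. Signals are the deposited log2 values. Array medians lay between 5.38 and 5.53 over all 16 arrays, so signals near 4 or 5 lie at or under the middle of an array, and a fold against such a level may be understated. Keratin 14 and keratin 5, which define basal keratinocytes, had signals of 13.82 and 13.89 and of 12.84 and 13.65 with β-catenin loss, and of 13.42, 12.83 and 13.56 and of 13.88, 13.68 and 13.49 with SmoM2 alone. Ctnnb1 itself was at 12.76 and 12.93 with β-catenin loss, 13.65, 13.21 and 13.26 with SmoM2 alone and 13.04, 12.76 and 12.77 in controls. The difference of −0.52 ± 0.21 did not pass (adjusted p = 0.215, limma with Benjamini-Hochberg adjustment over all genes tested). Further probe sets of Ctnnb1 differed by −0.20 and 0.63, so its reading depends on the probe set. The position of its probes against the deleted exons was not checked, so this signal does not check the deletion. The sexes were mixed unequally: the mean of 3 Y-linked genes was 3.39 and 6.91 with β-catenin loss and 8.41, 7.58 and 6.02 with SmoM2 alone, and Xist was at 11.25 and 12.43 against 6.50, 8.12 and 12.52. Replicate 2 of β-catenin loss and replicate 3 of SmoM2 alone had strong Xist signal together with Y-linked signal. These arrays may hold cells of mice of both sexes, which the labels do not state. Of the genes that passed, 8 were X-linked and 0 Y-linked. The share of such genes among all those tested was not counted, so this does not show how far sex entered the differences. On the first principal component of the IFE arrays, with 30.3% of the variance, the arrays lay at −18.3 and −9.54 with β-catenin loss, at 34.6, 56.6 and 21.5 with SmoM2 alone and at −30.0, −28.9 and −37.7 in controls. Arrays with the same replicate number resembled each other in the groups without β-catenin loss: between controls, SmoM2 at 1 week and SmoM2 at 4 weeks, their deviations from group means correlated at 0.34 to 0.70 across genes. The arrays with β-catenin loss did not join their number, with correlations of −0.18 to 0.01. On the second component (21.0% of the variance), those numbered 1 lay at 54.7 for SmoM2 at 4 weeks, 47.7 at 1 week and 34.8 for control, and β-catenin loss at −37.0 and −21.7. An experiment number recorded for the arrays equals the replicate number in all these groups. The labels record no processing run, so a run of its own for β-catenin loss and the loss itself cannot be told apart.

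Of 18194 genes read, 14286 had signal enough to be tested, of which 226 were lower (1.58%) and 92 were higher (0.644%) with β-catenin loss than with SmoM2 alone at an adjusted p under 0.05. At an unadjusted p under 0.05 the counts were 1515 lower (10.6%) and 939 higher (6.57%). The arrays of both groups did not overlap in 2509 genes that were lower (17.6%) and 1580 that were higher (11.1%), among them all 318 genes that passed. A change of at least 2-fold was seen in 215 of the 226 and in 84 of the 92. The median difference over all genes tested was −0.09 and became 0.01 after quantile normalization, which called 108 genes lower and 101 higher, so that 51.7% of calls were lower instead of 71.1%. Of the calls, 185 were shared by both scalings. List counts below stand against all genes tested: 1.58% lower and 0.644% higher at the adjusted threshold. The shares at an unadjusted p under 0.05 were 10.6% and 6.57%. Genes of a list beyond those that the naming rule took were chosen as examples after their values were seen.

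The calls depended on the arrays. With replicate 1 of β-catenin loss left out, limma called 0 genes lower and 2 higher (Ang and Ddx4, named because so few passed), while 963 were lower and 467 higher at an unadjusted p under 0.05. Of the 37 named genes that passed, 36 did not pass there. With replicate 2 left out, 145 were lower and 89 higher. With replicate 1 of SmoM2 alone left out the counts were 98 and 49, and without its replicate 2 they were 178 and 51. When the spread was taken from the 5 arrays alone, 15 genes were lower and 2 higher. A term for the Y-linked signal left 105 lower and 39 higher, and a term for Xist left 105 and 47; a part of sex in the differences was not tested further. In 159 of the 226 genes that fell, replicate 1 of β-catenin loss lay below its replicate 2, and in 69 of the 92 that rose it lay above.

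Among genes past the threshold, the 12 largest falls included a Wnt antagonist, an R-spondin receptor, a TGF-β ligand and 3 adhesion molecules. Col14a1, Hhip, Nrcam and Fbn2 differed by as much without passing and are given with their lists. Wif1, a secreted protein that binds and blocks Wnt ligands, had signals of 3.23 and 3.82 with β-catenin loss, 7.71, 12.31 and 9.30 with SmoM2 alone and 5.60, 4.43 and 4.46 in controls. The difference was −6.25 ± 1.45 (adjusted p = 0.04997), against signals with β-catenin loss far below the array median and with SmoM2 arrays widely spread. Over the 17 alternatives it lay between −7.28 and −4.98 and passed in 6. Synpo2, an actin-binding protein, was at 4.04 and 4.04 with β-catenin loss, 9.32, 8.85 and 8.57 with SmoM2 alone and 5.44, 4.41 and 4.76 in controls. The SmoM2 arrays stood apart from both of the other groups, and the difference was −4.87 ± 0.88 (adjusted p = 0.025). Tgfb2, a ligand of the TGF-β family, was at 5.30 and 6.84 with β-catenin loss, 10.63, 10.87 and 10.13 with SmoM2 alone and 8.29, 7.96 and 8.50 in controls. Both arrays with β-catenin loss lay below all 3 controls as well, and the difference was −4.47 ± 0.67 (adjusted p = 0.0122). Pcdh20, a protocadherin, was at 4.03 and 5.32 with β-catenin loss, 9.16, 9.55 and 8.71 with SmoM2 alone and 6.70, 5.07 and 4.98 in controls, a difference of −4.47 ± 0.71 (adjusted p = 0.0154). Nrep, a small protein first described in regenerating neurons, was at 5.13 and 9.16 with β-catenin loss, 11.48, 11.33 and 11.31 with SmoM2 alone and 11.26, 9.13 and 9.78 in controls. Its arrays with β-catenin loss lay further apart than those of the other 11 genes, and the difference was −4.23 ± 0.96 (adjusted p = 0.0466).

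Lgr6, a receptor for R-spondins that strengthens Wnt signalling and marks stem cells of the upper hair follicle, was at 4.65 and 6.34 with β-catenin loss, 8.84, 10.52 and 9.39 with SmoM2 alone and 8.22, 7.98 and 7.70 in controls. The difference of −4.09 ± 0.60 (adjusted p = 0.0122) took it below every control array. Ptprv, a receptor-type tyrosine phosphatase, had 5.70 and 6.48 with β-catenin loss, 9.75, 10.86 and 9.88 with SmoM2 alone and 8.70, 7.58 and 7.92 in controls, with a difference of −4.07 ± 0.51 (adjusted p = 0.00948). Cdh11, a classical cadherin best known from mesenchymal cells and bone, was at 3.70 and 5.28 with β-catenin loss, 8.61, 8.99 and 7.80 with SmoM2 alone and 3.78, 4.35 and 4.77 in controls. The arrays with β-catenin loss spanned those of the controls, and the difference was −3.97 ± 0.87 (adjusted p = 0.0431). Krtap17-1, a keratin-associated protein of the hair shaft, was at 4.55 and 4.62 with β-catenin loss, 9.13, 8.06 and 8.34 with SmoM2 alone and 8.22, 6.82 and 6.56 in controls, a difference of −3.92 ± 0.85 (adjusted p = 0.0427). Fstl1, a secreted follistatin-like glycoprotein, was at 4.65 and 6.46 with β-catenin loss, 9.60, 9.59 and 9.01 with SmoM2 alone and 6.84, 5.11 and 5.50 in controls, and fell by 3.85 ± 0.68 (adjusted p = 0.0235). Mtcl1, a protein that crosslinks microtubules, and Itga8, an integrin chain, closed the set. Mtcl1 was at 4.08 and 4.72 with β-catenin loss, 9.33, 7.24 and 8.02 with SmoM2 alone and 4.57, 5.32 and 4.54 in controls (adjusted p = 0.013). Itga8 was at 4.29 and 4.28 with β-catenin loss, 6.78, 9.39 and 7.64 with SmoM2 alone and 5.83, 4.28 and 5.56 in controls (adjusted p = 0.0452), with 1 SmoM2 array well above the other 2. The 12 genes were picked among those without overlap between the groups. That no array with β-catenin loss reached a SmoM2 array in their plot therefore follows from the rule.

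**Figure D1:**
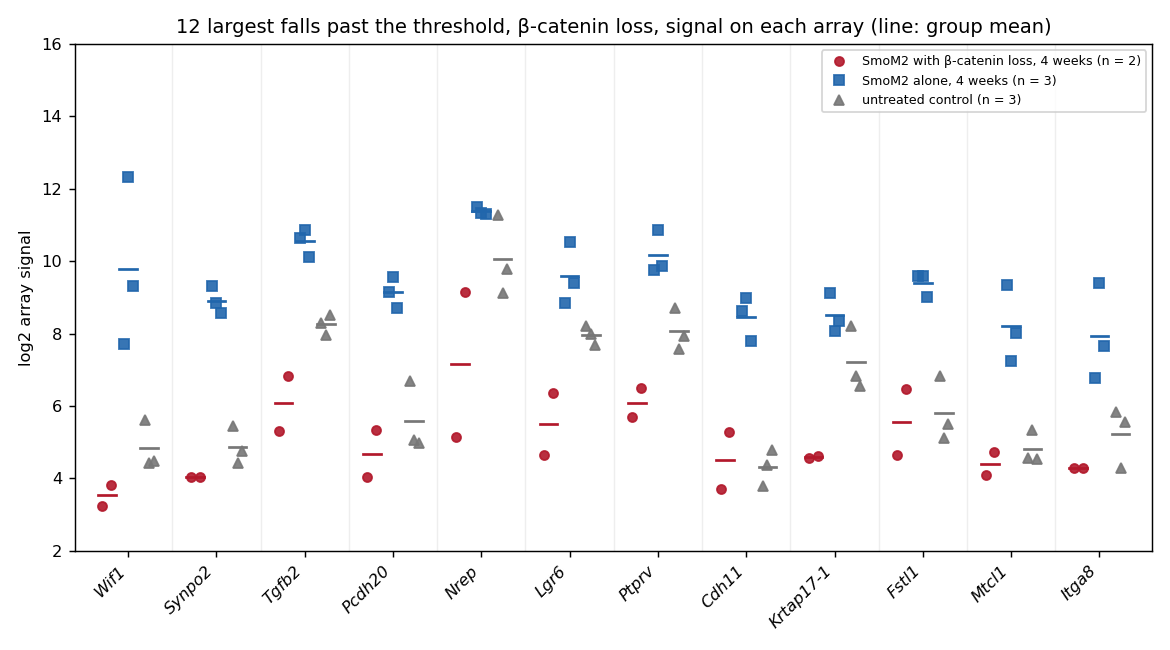
Log2 array signal (vertical axis) of the 12 genes with the largest falls among those past the threshold, for each array with β-catenin loss (red circles, n = 2), SmoM2 alone (blue squares, n = 3) and of controls (grey triangles, n = 3), with lines at group means. Signals with β-catenin loss lay between 3.23 (Wif1) and 9.16 (Nrep). They lay below every SmoM2 array of the same gene because genes were picked for no overlap.

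Among genes past the threshold, the 12 largest rises included enzymes of lipid, prostaglandin and xenobiotic metabolism and 2 cytokine receptors. Other genes, among them Tgfbr3 and Lcn2, differed by more than some of these without passing. Tgfbr3 and Lcn2 are given with their lists. Ang, the secreted ribonuclease angiogenin, had signals of 8.05 and 10.15 with β-catenin loss, 4.65, 5.71 and 4.61 with SmoM2 alone and 5.14, 5.81 and 5.15 in controls. It rose by 4.11 ± 0.54 (adjusted p = 0.0102) and lay far above all 6 other arrays given. Il6ra, the α chain of the interleukin 6 receptor, was at 10.05 and 9.83 with β-catenin loss, 5.30, 5.51 and 7.34 with SmoM2 alone and 7.06, 9.88 and 9.15 in controls. Against SmoM2 alone it rose (3.89 ± 0.86, adjusted p = 0.0447), and it lay within or just above the range of the controls. Hpgd, which breaks down prostaglandins, was at 11.83 and 11.18 with β-catenin loss, 8.36, 6.91 and 8.57 with SmoM2 alone and 8.63, 9.82 and 9.64 in controls, a rise of 3.56 ± 0.59 (adjusted p = 0.0199). Gsta3, a glutathione S-transferase, was at 8.66 and 8.42 with β-catenin loss, 6.001, 3.94 and 5.56 with SmoM2 alone and 5.85, 6.21 and 7.55 in controls, a rise of 3.38 ± 0.58 (adjusted p = 0.0222). Vegfd, a growth factor for lymphatic vessels, was at 9.88 and 9.76 with β-catenin loss, 5.70, 7.16 and 7.01 with SmoM2 alone and 8.17, 8.71 and 8.90 in controls. All 3 probe sets beside the one used that read Vegfd or Hpgd were higher too, by 3.12 and 2.68 for Vegfd and by 1.74 for Hpgd, and the fitted rise of Vegfd was 3.20 ± 0.49 (adjusted p = 0.013).

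Il22ra2, a soluble receptor that captures interleukin 22, was at 8.81 and 7.36 with β-catenin loss, 5.20, 5.12 and 4.90 with SmoM2 alone and 6.05, 7.05 and 6.25 in controls, a rise of 3.01 ± 0.42 (adjusted p = 0.0122). Acot5, a peroxisomal acyl-CoA thioesterase, was at 8.01 and 5.92 with β-catenin loss, 3.96, 4.09 and 3.91 with SmoM2 alone and 4.47, 4.18 and 4.29 in controls. Its replicates with β-catenin loss lay apart and both exceeded every other array given (2.98 ± 0.44, adjusted p = 0.0122). Abcc3, an organic anion transporter, was at 9.68 and 10.35 with β-catenin loss, 7.08, 7.55 and 7.38 with SmoM2 alone and 8.13, 9.15 and 8.88 in controls, a rise of 2.68 ± 0.50 (adjusted p = 0.0271). Cyp2b19, a keratinocyte cytochrome P450, was at 8.07 and 6.55 with β-catenin loss, 5.44, 4.24 and 4.26 with SmoM2 alone and 4.89, 4.77 and 4.23 in controls, with a rise of 2.66 ± 0.47 (adjusted p = 0.0246). Mgll, which cleaves monoacylglycerols, was at 10.82 and 10.41 with β-catenin loss, 8.12, 7.16 and 9.23 with SmoM2 alone and 9.14, 10.22 and 8.89 in controls (2.45 ± 0.53, adjusted p = 0.0409). Both arrays with β-catenin loss lay above the controls, of which replicate 2 was nearest. Emb, an immunoglobulin-family partner of monocarboxylate transporters, was at 11.39 and 10.64 with β-catenin loss, 8.85, 8.41 and 8.48 with SmoM2 alone and 8.97, 7.97 and 8.78 in controls (2.44 ± 0.33, adjusted p = 0.0122). Tnnt2, the heart isoform of troponin T, was at 6.98 and 6.89 with β-catenin loss, 4.06, 4.96 and 4.69 with SmoM2 alone and 4.68, 4.91 and 4.68 in controls. The rise of 2.36 ± 0.25 had an adjusted p of 0.00503, and its replicates were close to each other. This lowest adjusted p was shared with Cxxc5, a zinc finger protein that restrains Wnt signalling, named for it after its values were seen. Cxxc5 fell, at 5.97 and 6.24 with β-catenin loss, 9.03, 8.55 and 8.50 with SmoM2 alone and 6.73, 6.33 and 6.89 in controls (−2.59 ± 0.26, adjusted p = 0.00503). Of all 92 genes that rose, 78 had both arrays above every control, and of the 226 that fell, 129 had both below every control. Those genes were chosen for high or low signals on these arrays, so the shares are a description. The probe sets read for Ang, Hpgd and Mgll (suffix _s_at) and for Nrep, Vegfd and Tnnt2 (suffix _x_at) can also match related transcripts. Across the named genes that passed, 45 of 47 further probe sets differed in the same direction, the exceptions being 1 of Bmp7 (0.26) and 1 of Scd2 (1.05).

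**Figure D2:**
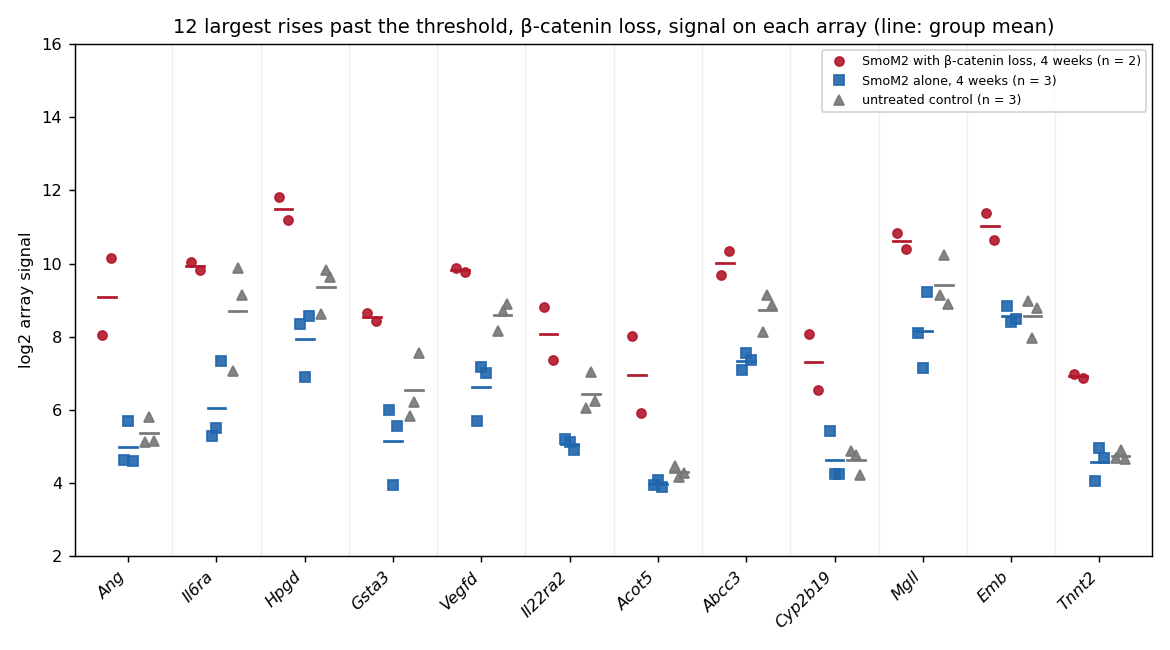
Log2 array signal (vertical axis) of the 12 genes with the largest rises among those past the threshold, for each array with β-catenin loss (red circles, n = 2), SmoM2 alone (blue squares, n = 3) and of controls (grey triangles, n = 3), with lines at group means. Genes were picked for no overlap, so both arrays with β-catenin loss lay above all SmoM2 arrays. For Hpgd, Vegfd, Il22ra2 and Abcc3 all controls lay between both groups.

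Most markers of the sebaceous gland were higher with β-catenin loss than with SmoM2 alone. Of 13 tested, 1 rose and 0 fell, beside 0.644% and 1.58% of all genes. At an unadjusted p under 0.05, 7 were higher and 1 lower, beside 6.57% and 10.6% of all genes, and the median difference was 1.59. In sign, 10 members were higher and 3 lower, the lowest at −1.56. The genes given here are from the higher side. The mean signal of the list was 9.62 and 9.18 with β-catenin loss, 8.79, 7.34 and 8.62 with SmoM2 alone and between 8.59 and 9.35 in controls. Acsbg1, an acyl-CoA synthetase, passed, at 9.56 and 8.87 with β-catenin loss, 7.48, 6.54 and 7.79 with SmoM2 alone and 7.83, 7.97 and 8.51 in controls (1.94 ± 0.39, adjusted p = 0.0337). Elovl3, a fatty acid elongase, was at 10.03 and 9.30 with β-catenin loss, 7.25, 5.77 and 8.27 with SmoM2 alone and 7.99, 8.83 and 7.42 in controls (adjusted p = 0.0533). Mc5r, the melanocortin receptor of sebocytes, was at 7.25 and 6.80 with β-catenin loss, 6.20, 4.68 and 5.42 with SmoM2 alone and 6.79, 6.09 and 6.40 in controls (adjusted p = 0.058), and Pparg, the nuclear receptor of lipid storing cells, at 8.21 and 7.69 with β-catenin loss, 6.71, 4.30 and 6.07 with SmoM2 alone and 8.29, 6.62 and 7.10 in controls (adjusted p = 0.148). SmoM2 replicate 2 was lowest for all 4 of these genes. In such bulk samples, more cells of a type and more RNA per cell cannot be told apart, and the part of sebaceous cells in the rises was not tested.

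Wnt target genes came next. Of 18 Wnt/β-catenin feedback and target genes tested, 2 fell and 0 rose, against 1.58% and 0.644% of all genes, and 9 were lower and 1 higher at an unadjusted p under 0.05. The list median was −0.76 (−0.69 after quantile normalization), beside −0.09 for all genes. Lef1, itself a target of the pathway and one of the nuclear partners of β-catenin, was at 5.58 and 5.59 with β-catenin loss, 7.25, 7.26 and 7.34 with SmoM2 alone and 5.81, 6.06 and 5.89 in controls. The 5 arrays fell into a pair of tight groups, with β-catenin loss below the lowest control, and the difference was −1.70 ± 0.21 (adjusted p = 0.00948). Wif1, described above, was the other gene that passed. Axin2, the feedback inhibitor most used as a reporter of Wnt signalling, was at 6.83 and 6.57 with β-catenin loss, 8.18, 7.24 and 7.51 with SmoM2 alone and 8.29, 7.94 and 8.29 in controls. The arrays of the groups with and without β-catenin did not overlap, but the difference of −0.94 ± 0.35 did not pass (adjusted p = 0.183), and the controls reached from within to just above the SmoM2 range. Nkd1, another feedback inhibitor, overlapped between the groups (−0.36 ± 0.25, adjusted p = 0.512). Its further probe sets differed by −1.56, −0.45 and −0.32, so its reading depends on the probe set. Lgr5, an R-spondin receptor and stem cell marker of the lower follicle, was at 6.45 and 8.24 with β-catenin loss, 9.69, 10.56 and 10.60 with SmoM2 alone and 6.13, 6.30 and 6.78 in controls (−2.93 ± 0.78, adjusted p = 0.0716). Ascl2, a transcription factor that is a Wnt target in intestine, had the opposite sign (0.61 ± 0.34, adjusted p = 0.405), with 7.01 and 6.50 with β-catenin loss, 6.14, 6.08 and 6.21 with SmoM2 alone and 7.97, 7.93 and 8.12 in controls. Myc also had the opposite sign, at 10.06 and 9.68 with β-catenin loss, 6.95, 8.32 and 8.70 with SmoM2 alone and 9.43, 9.85 and 9.75 in controls (1.88 ± 0.46, adjusted p = 0.0585).

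Because Wif1 and Lef1 were the target genes that passed, the 250 bases before their RefSeq starts (GRCm38.p6, plus strand of chr10:121033754-121034003 and of chr3:131110047-131110296) are shown, 5′ to 3′. For Lef1 and Tle4, the first listed of several starts was read.
Wif1: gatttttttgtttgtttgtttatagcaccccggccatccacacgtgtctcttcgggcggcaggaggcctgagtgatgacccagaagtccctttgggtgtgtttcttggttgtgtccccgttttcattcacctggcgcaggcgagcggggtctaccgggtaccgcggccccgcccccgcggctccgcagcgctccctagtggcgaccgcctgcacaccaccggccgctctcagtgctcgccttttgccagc
Lef1: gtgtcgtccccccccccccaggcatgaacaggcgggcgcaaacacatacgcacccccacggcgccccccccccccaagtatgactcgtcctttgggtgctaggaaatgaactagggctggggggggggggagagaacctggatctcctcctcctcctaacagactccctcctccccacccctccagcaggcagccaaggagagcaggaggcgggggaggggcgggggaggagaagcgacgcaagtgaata
The letters CTTTGA, the core of the site that Tcf/Lef factors bind, or TCAAAG on the other strand, would stand in capitals and occurred in neither window, nor in those of Lgr6 and Tle4. Of the genes that fell, 179 of 226 had a window in the table, of which 10.1% held the letters. Among the genes that rose 74 of 92 had one, with 10.8%, and of all genes tested 11438 had one, with 10.9%; over the 27025 windows of the whole table the share was 14.1%. These shares describe the windows and say nothing of sites elsewhere.

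Among 29 Wnt ligands and receptors, 1 fell (Lgr6) and 0 rose (1.58% and 0.644% of all genes), with 8 lower and 1 higher at an unadjusted p under 0.05 (10.6% and 6.57%) and a median of −0.26. Of the 8, 4 were frizzled receptors (Fzd1, Fzd2, Fzd3 and Fzd7). Fzd7 was at 9.56 and 9.57 with β-catenin loss, 10.98, 10.99 and 10.67 with SmoM2 alone and 9.79, 8.69 and 9.44 in controls (−1.32 ± 0.46, adjusted p = 0.159). Wnt5a, a ligand of the non-canonical branch, was at 4.28 and 5.95 with β-catenin loss, 6.72, 6.47 and 7.42 with SmoM2 alone and 6.07, 5.04 and 6.86 in controls (−1.75 ± 0.53, adjusted p = 0.11), whereas Wnt16 was at 7.12 and 6.54 with β-catenin loss, 4.66, 4.58 and 5.45 with SmoM2 alone and 6.70, 5.27 and 7.18 in controls (1.93 ± 0.67, adjusted p = 0.161). Lgr4, the third R-spondin receptor, was at 10.87 and 11.42 with β-catenin loss, 11.67, 12.41 and 12.07 with SmoM2 alone and 9.87, 10.48 and 10.44 in controls (adjusted p = 0.278). Of 23 genes of the destruction complex and the Tcf/Lef factors, 2 fell and 0 rose (1.58% and 0.644% of all genes), 8 were lower and 1 higher at an unadjusted p under 0.05 (10.6% and 6.57%), and the median was −0.28. Beside Lef1, this was Tle4, a Groucho-type corepressor of Tcf factors, at 8.67 and 8.71 with β-catenin loss, 10.35, 10.26 and 9.70 with SmoM2 alone and 9.34, 8.74 and 9.17 in controls (−1.41 ± 0.30, adjusted p = 0.0409). The other Tcf factors measured did not pass: Tcf7l1, which represses Wnt targets in follicle stem cells, differed by −0.59 ± 0.22 (adjusted p = 0.183) and Tcf7l2 by −0.44 ± 0.37 (adjusted p = 0.594). Apc, the scaffold of the destruction complex, differed by −0.43 ± 0.24 (adjusted p = 0.405), and Gsk3b, its kinase, by 0.48 ± 0.31 (adjusted p = 0.474).

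Of 17 hedgehog pathway and target genes tested, 0 passed in either direction by limma. At an unadjusted p under 0.05, 8 were lower and 2 higher, beside 10.6% and 6.57% of all genes, and the median was −0.93 (−0.86 after quantile normalization). Gli1, the target that reads out the pathway, was at 7.22 and 9.56 with β-catenin loss, 10.55, 10.83 and 9.95 with SmoM2 alone and 5.73, 5.58 and 5.30 in controls. Both arrays with β-catenin loss lay below the SmoM2 arrays and above all controls, far apart from each other, and the difference of −2.06 ± 0.60 did not pass (adjusted p = 0.0995). Ptch1, the hedgehog receptor and feedback inhibitor, was at 10.71 and 12.50 with β-catenin loss, 13.60, 12.92 and 12.64 with SmoM2 alone and 9.10, 8.66 and 9.11 in controls (−1.44 ± 0.53, adjusted p = 0.18). Hhip, which binds hedgehog ligands, was at 4.36 and 7.79 with β-catenin loss, 10.29, 11.19 and 8.84 with SmoM2 alone and 6.78, 5.09 and 7.12 in controls (−4.02 ± 1.13, adjusted p = 0.0852). Mycn, a proto-oncogene induced by hedgehog signalling, was at 5.42 and 8.50 with β-catenin loss, 11.80, 9.09 and 10.28 with SmoM2 alone and 7.23, 6.07 and 6.56 in controls (−3.43 ± 1.05, adjusted p = 0.114). Further probe sets of Mycn, of lower mean signal, differed by only −0.04 and −0.56, so its reading depends on the probe set. For all 4 of these genes replicate 1 of β-catenin loss was the lower. Smo, whose probe set was not checked against the SmoM2 transgene, was at 9.67 and 10.33 with β-catenin loss, 11.48, 10.98 and 11.01 with SmoM2 alone and 9.80, 9.80 and 10.01 in controls (−1.15 ± 0.30, adjusted p = 0.0658). Gli2 overlapped between the groups (−1.002 ± 0.55, adjusted p = 0.392). Cdon, a hedgehog co-receptor, and Ccnd2, a D cyclin, were the 2 higher members; Ccnd2 was at 11.89 and 11.86 with β-catenin loss, 10.56, 10.54 and 11.24 with SmoM2 alone and 11.75, 12.15 and 11.97 in controls (1.10 ± 0.30, adjusted p = 0.083). The plot of Wnt and hedgehog genes shows the tight groups of Lef1 beside the wide ones of Gli1 and Hhip.

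**Figure D3:**
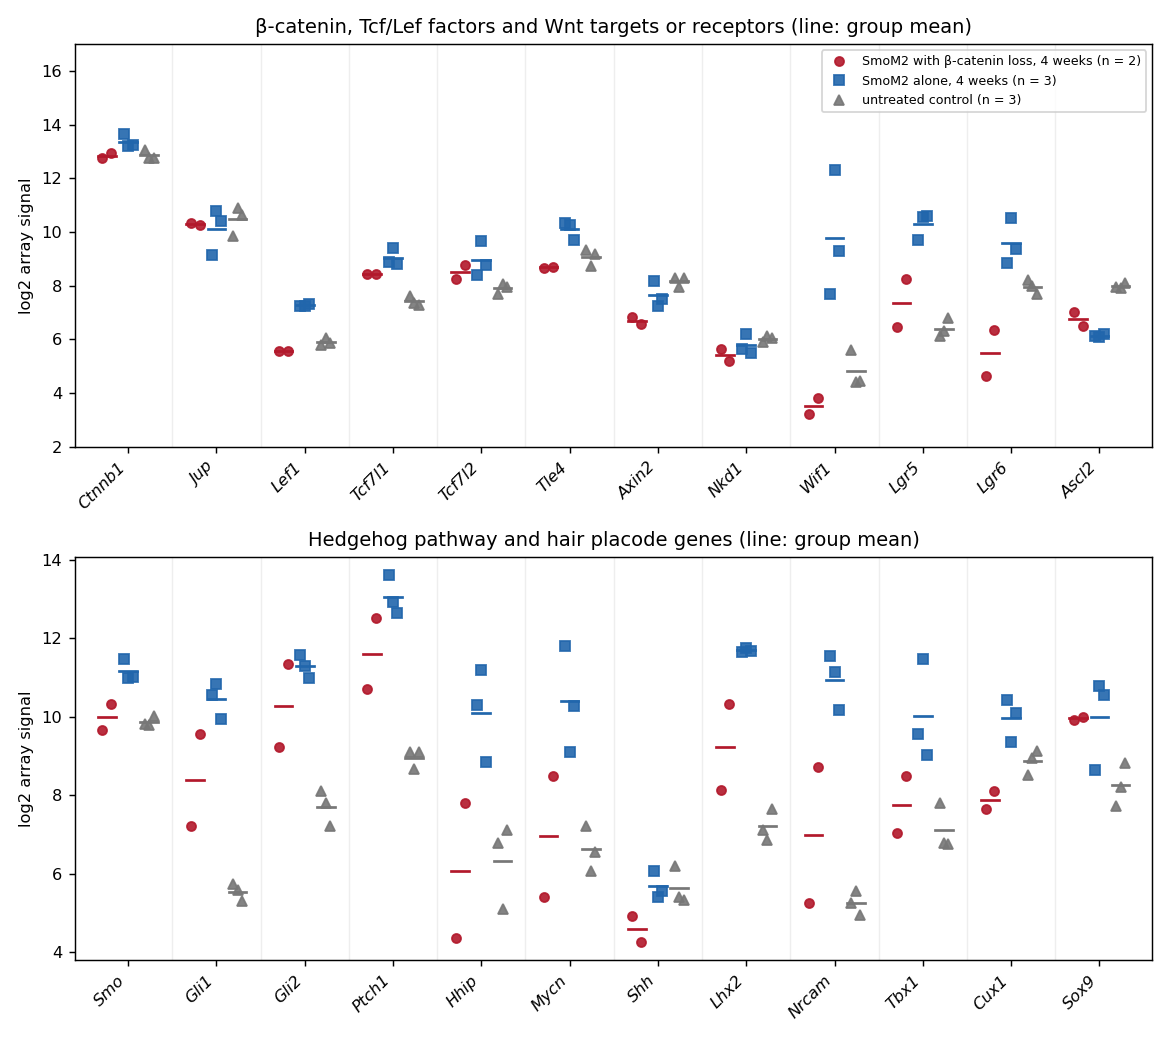
Log2 array signal (vertical axis) of β-catenin, Tcf/Lef factors and Wnt genes (top) and of hedgehog and hair placode genes (bottom), for each array with β-catenin loss (red circles, n = 2), SmoM2 alone (blue squares, n = 3) and of controls (grey triangles, n = 3), with lines at group means. Lef1, Tle4, Wif1, Lgr6 and Cux1 passed the threshold; replicates with β-catenin loss lay far apart for Gli1, Hhip, Mycn and Nrcam.

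The embryonic hair placode and germ list, the programme of the follicle bud, had a median of −0.95. Of 24 genes, 2 fell and 0 rose (1.58% and 0.644% of all genes), with 11 lower and 0 higher at an unadjusted p under 0.05 (10.6% and 6.57%), and 12 did not overlap on the lower side against 17.6% of all genes. Cux1, a homeobox factor of the hair lineage, was at 7.64 and 8.10 with β-catenin loss, 10.42, 9.37 and 10.09 with SmoM2 alone and 8.52, 8.94 and 9.13 in controls (−2.09 ± 0.33, adjusted p = 0.0148), and all of its 8 further probe sets were lower too. Lef1 was the other. Lhx2, a transcription factor of placode and stem cells, was at 8.14 and 10.32 with β-catenin loss, 11.65, 11.74 and 11.68 with SmoM2 alone and 7.12, 6.86 and 7.65 in controls (−2.46 ± 0.75, adjusted p = 0.114). With β-catenin loss it lay between the SmoM2 arrays and the controls. Nrcam, an adhesion molecule of the immunoglobulin family, was at 5.24 and 8.72 with β-catenin loss, 11.53, 11.13 and 10.16 with SmoM2 alone and 5.24, 5.57 and 4.94 in controls (−3.96 ± 1.23, adjusted p = 0.118). Tbx1 was at 7.04 and 8.48 with β-catenin loss, 9.55, 11.48 and 9.01 with SmoM2 alone and 7.79, 6.79 and 6.76 in controls (−2.26 ± 0.66, adjusted p = 0.0987). Sox9, which follicle stem cells need, overlapped, at 9.91 and 10.003 with β-catenin loss, 8.64, 10.77 and 10.56 with SmoM2 alone and 7.72, 8.20 and 8.82 in controls (−0.03 ± 0.66, adjusted p = 0.989), and so did Runx1 (−0.45 ± 0.83, adjusted p = 0.827). The further probe sets of Runx1 differed by −1.67 to −0.16. Shh, the ligand made by the placode, had low signals, at 4.93 and 4.27 with β-catenin loss, 6.07, 5.42 and 5.57 with SmoM2 alone and 6.20, 5.42 and 5.32 in controls (−1.09 ± 0.37, adjusted p = 0.153).

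Of 25 bulge stem cell markers, Wif1 fell and 0 rose (1.58% and 0.644% of all genes), 14 were lower and 0 higher at an unadjusted p under 0.05 (10.6% and 6.57%), and the median of −1.29 was the lowest of the lists. The lists share members (Wif1, Lgr5, Lhx2 and Tbx1 stand in more than 1). Grem1, a secreted BMP antagonist, was at 4.48 and 4.84 with β-catenin loss, 6.42, 7.89 and 7.12 with SmoM2 alone and 4.98, 5.39 and 5.41 in controls (−2.48 ± 0.59, adjusted p = 0.0521). Bmp6, a BMP ligand that keeps follicle stem cells quiet, was at 5.26 and 4.73 with β-catenin loss, 7.36, 9.03 and 6.52 with SmoM2 alone and 5.41, 4.86 and 4.74 in controls (−2.64 ± 0.72, adjusted p = 0.0783). For both, the arrays with β-catenin loss lay in or below the range of the controls. Fst, follistatin, which binds activins, was at 9.03 and 8.98 with β-catenin loss, 8.81, 10.74 and 9.39 with SmoM2 alone and 8.51, 7.56 and 8.25 in controls (−0.64 ± 0.51, adjusted p = 0.573). Krt15, a keratin of the bulge and of basal tail epidermis, overlapped (0.18 ± 0.28, adjusted p = 0.788).

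Among BMP and TGF-β genes, 2 of 26 genes fell and 0 rose (1.58% and 0.644% of all genes), 11 were lower and 1 higher at an unadjusted p under 0.05 (10.6% and 6.57%), and the median was −0.58. Tgfb2, given above, was joined by Bmp7, a BMP ligand, at 7.82 and 7.53 with β-catenin loss, 8.68, 9.75 and 9.11 with SmoM2 alone and 8.69, 8.49 and 8.76 in controls (−1.50 ± 0.28, adjusted p = 0.0292). The replicates with β-catenin loss were both below the lowest control. Tgfb3 was at 7.15 and 6.81 with β-catenin loss, 10.58, 9.74 and 8.89 with SmoM2 alone and 7.98, 6.46 and 6.17 in controls (−2.76 ± 0.80, adjusted p = 0.0959), and Ltbp1, which stores latent TGF-β in the matrix, at 7.04 and 6.33 with β-catenin loss, 9.07, 8.33 and 9.51 with SmoM2 alone and 6.95, 6.34 and 7.43 in controls (−2.29 ± 0.71, adjusted p = 0.119). The co-receptor Tgfbr3 had the opposite sign, at 10.50 and 10.46 with β-catenin loss, 8.66, 5.84 and 7.66 with SmoM2 alone and 10.14, 9.96 and 10.44 in controls (3.09 ± 0.83, adjusted p = 0.0745), with SmoM2 alone below both other groups.

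Of 37 extracellular matrix genes, 3 fell and 0 rose, beside 1.58% and 0.644% of all genes. At an unadjusted p under 0.05, 18 were lower (10.6% of all genes) and 0 higher, 20 did not overlap on the lower side (17.6% of all genes), and the median was −1.07. Fn1, fibronectin, was at 5.37 and 5.48 with β-catenin loss, 7.65, 7.13 and 8.12 with SmoM2 alone and 6.24, 6.997 and 6.41 in controls (−2.21 ± 0.39, adjusted p = 0.0235). Col5a1, a chain of the fibril-regulating collagen V, was at 6.01 and 6.79 with β-catenin loss, 8.56, 8.37 and 8.11 with SmoM2 alone and 7.14, 6.81 and 6.44 in controls (−1.95 ± 0.34, adjusted p = 0.0223). Mmp11, the stromelysin 3 protease, was at 3.91 and 4.17 with β-catenin loss, 5.02, 5.08 and 5.16 with SmoM2 alone and 4.49, 4.15 and 4.28 in controls (−1.05 ± 0.20, adjusted p = 0.0288), all low signals. Col14a1, a fibril-associated collagen, was at 4.43 and 9.002 with β-catenin loss, 11.96, 10.08 and 11.29 with SmoM2 alone and 6.27, 5.36 and 5.58 in controls (−4.39 ± 1.12, adjusted p = 0.0645), its replicates with β-catenin loss being far apart. Fbn2, a fibrillin, was at 5.15 and 4.60 with β-catenin loss, 8.43, 9.78 and 8.20 with SmoM2 alone and 6.13, 5.10 and 4.88 in controls (−3.92 ± 0.96, adjusted p = 0.056). Markers of dermal fibroblasts, which share members with this list, were on the lower side too: of 12 tested, 0 passed, 5 were lower and 0 higher at an unadjusted p under 0.05, and the median was −0.74. The mean signal of that list was 5.17 and 5.74 with β-catenin loss, 6.56, 6.04 and 6.53 with SmoM2 alone and between 5.87 and 6.33 in controls. Col1a2, a collagen I chain, was at 5.23 and 5.34 with β-catenin loss, 8.38, 6.54 and 7.12 with SmoM2 alone and 6.11, 6.69 and 5.70 in controls (−2.06 ± 0.54, adjusted p = 0.0683), and Dcn, decorin, at 7.78 and 10.49 with β-catenin loss against 12.53, 10.69 and 11.46 with SmoM2 alone (adjusted p = 0.0884). Pdgfra, a receptor that defines fibroblasts, was near the array median or below it, at 4.81 and 4.43 against 4.61, 5.49 and 4.74, and so was Col1a1, at 3.90 and 4.06 against 4.21, 4.81 and 4.44. Their part in the matrix genes was not tested.

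Junction genes were mostly without a call. Of 19 catenins, cadherins and adherens junction genes, Cdh11 fell and 0 rose (1.58% and 0.644% of all genes), 7 were lower and 0 higher at an unadjusted p under 0.05 (10.6% and 6.57%), and the median was −0.41. Cdh1, E-cadherin, the main cadherin that β-catenin binds in epidermis, was at 12.15 and 11.95 with β-catenin loss and 11.49, 12.35 and 11.90 with SmoM2 alone (0.14 ± 0.31, adjusted p = 0.861). Jup, plakoglobin, the closest relative of β-catenin, which can take its place at junctions, was at 10.32 and 10.25 with β-catenin loss and 9.16, 10.79 and 10.43 with SmoM2 alone (0.16 ± 0.46, adjusted p = 0.894), with overlap. Cdh3, P-cadherin, overlapped too (0.99 ± 0.90, adjusted p = 0.628). Of 13 desmosome genes, 0 passed by limma, 1 was lower and 1 higher at an unadjusted p under 0.05, and the median was −0.03. Dsc2, a desmocollin, had the lowest adjusted p on the lower side (−1.004 ± 0.42, adjusted p = 0.248). Ppl, periplakin, on the higher side, was at 10.30 and 10.44 with β-catenin loss, 9.85, 9.10 and 9.17 with SmoM2 alone and 9.89, 10.09 and 10.21 in controls (1.001 ± 0.26, adjusted p = 0.0713).

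Basal epidermis and hemidesmosome genes, which anchor basal cells to the basement membrane, had a median of 0.49. Of 15 tested, 1 rose and 0 fell (0.644% and 1.58% of all genes), 4 were higher and 1 lower at an unadjusted p under 0.05 (6.57% and 10.6%), and 8 did not overlap on the higher side against 11.1% of all genes. Itga3, the laminin-binding integrin α3 chain, was at 8.92 and 8.75 with β-catenin loss, 7.49, 7.81 and 7.51 with SmoM2 alone and 8.60, 8.61 and 8.36 in controls (1.23 ± 0.26, adjusted p = 0.0409). With SmoM2 alone it was below every control and with β-catenin loss above every control. Itgb4, the hemidesmosome β4 chain, was at 10.23 and 10.69 with β-catenin loss, 9.71, 10.20 and 9.44 with SmoM2 alone and 9.94, 10.68 and 10.48 in controls (0.68 ± 0.27, adjusted p = 0.218). Among hair follicle keratins and differentiation genes, 2 of 31 fell and 0 rose (1.58% and 0.644% of all genes), 7 were lower and 1 higher at an unadjusted p under 0.05 (10.6% and 6.57%), and the median was −0.79. Krt75, a companion layer keratin, was at 5.56 and 4.77 with β-catenin loss, 7.02, 6.24 and 7.97 with SmoM2 alone and 6.19, 6.07 and 5.88 in controls (−1.91 ± 0.41, adjusted p = 0.0409), and Krt35, a hair keratin, at 4.75 and 4.49 with β-catenin loss, 6.15, 5.79 and 6.64 with SmoM2 alone and 6.89, 5.84 and 5.93 in controls (−1.57 ± 0.33, adjusted p = 0.0385). Krt17, a keratin of the follicle and of basal cell carcinoma, was at 11.87 and 11.93 with β-catenin loss, 12.47, 13.67 and 13.09 with SmoM2 alone and 11.58, 10.63 and 10.80 in controls (−1.17 ± 0.45, adjusted p = 0.205). Krt84 and Krt36, hair-type keratins of tail scales, were far below controls in both SmoM2 groups: Krt84 was at 6.62 and 6.23 with β-catenin loss, 8.24, 7.18 and 9.84 with SmoM2 alone and 12.51, 12.92 and 12.30 in controls (−1.99 ± 0.83, adjusted p = 0.246), and Krt36 was at 7.17 and 6.71 with β-catenin loss, 9.36, 6.77 and 10.56 with SmoM2 alone and 13.22, 13.08 and 12.87 in controls (−1.95 ± 0.98, adjusted p = 0.346).

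Interfollicular differentiation genes showed no call among 36, with 4 lower and 5 higher at an unadjusted p under 0.05 and a median of −0.08, close to that of all genes. Krt1, an early differentiation keratin, was at 12.68 and 12.76 with β-catenin loss, 10.42, 11.69 and 12.27 with SmoM2 alone and 13.15, 12.82 and 12.42 in controls (1.26 ± 0.51, adjusted p = 0.221), and its partner Krt10 differed by 0.54 ± 0.29 (adjusted p = 0.386). Krt2, a later keratin, had 10.14 and 11.78 with β-catenin loss, 9.78, 6.89 and 10.37 with SmoM2 alone and 12.74, 13.12 and 12.69 in controls (1.95 ± 0.95, adjusted p = 0.33). Asprv1, a protease that processes filaggrin, and Lor, loricrin, were on the lower side, by −2.48 ± 0.71 (adjusted p = 0.0919) and −1.57 ± 0.50 (adjusted p = 0.127). Tests of the 32 cell cycle genes gave 0 calls, with 0 at an unadjusted p under 0.05 in either direction and a median of −0.42. Mki67, the proliferation marker Ki-67, was at 9.34 and 11.66 with β-catenin loss, 11.54, 9.91 and 11.38 with SmoM2 alone and 11.52, 10.98 and 11.36 in controls (−0.45 ± 0.61, adjusted p = 0.761). Mcm5 and Mcm7, subunits of the replicative helicase, differed by −0.94 ± 0.52 (adjusted p = 0.392) and −0.69 ± 0.35 (adjusted p = 0.353). The list mean was 7.74 in replicate 1 of β-catenin loss but 9.02 in replicate 2, against 9.11, 7.97 and 9.40 with SmoM2 alone, so the spread within each group covered the difference. Ccnd1, cyclin D1, overlapped (−1.12 ± 0.56, adjusted p = 0.339), while Cdkn2b, an inhibitor of cyclin-dependent kinases and a TGF-β target, was the 1 gene of 17 p53 response and apoptosis genes that fell, at 7.11 and 6.93 with β-catenin loss, 8.87, 9.46 and 8.72 with SmoM2 alone and 7.55, 7.42 and 7.94 in controls (−1.997 ± 0.25, adjusted p = 0.00948). In that list 1 gene was lower, Cdkn2b, and 2 were higher at an unadjusted p under 0.05, and its median was 0.18.

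Interferon response genes split the replicates with β-catenin loss. The list mean was 5.37 in replicate 1 and 7.45 in replicate 2, against 5.62, 5.76 and 5.71 with SmoM2 alone and between 5.48 and 6.35 in controls. Ifit1, an interferon-induced antiviral protein, was at 3.91 and 8.52 with β-catenin loss, 3.92, 4.91 and 4.33 with SmoM2 alone and 4.18, 4.21 and 6.06 in controls (1.82 ± 1.30, adjusted p = 0.526). None of the 21 passed by limma, 0 were lower and 3 higher at an unadjusted p under 0.05, and the median was 0.80. Ifit3 and Mx1, also antiviral proteins, were likewise highest in replicate 2, Ifit3 at 5.21 and 6.50 against 5.23, 4.85 and 4.75 and Mx1 at 4.16 and 6.30 against 3.87, 3.70 and 4.09 (adjusted p = 0.179 and 0.23). Among 19 wound and barrier stress genes, 0 passed, 1 was lower and 3 higher at an unadjusted p under 0.05, and the median was −0.11. In sign, 10 were lower and 9 higher, and the genes given next are from the higher side. The list mean was 8.19 and 8.64 with β-catenin loss, inside the wide spread of 6.18, 8.43 and 9.51 with SmoM2 alone. Lcn2, an iron-scavenging defence protein, was at 10.42 and 9.95 with β-catenin loss, 6.48, 8.86 and 7.86 with SmoM2 alone and 6.95, 6.83 and 8.32 in controls (2.45 ± 0.67, adjusted p = 0.0791), and Tslp, an epithelial cytokine, at 4.91 and 6.35 with β-catenin loss, 3.77, 3.55 and 4.48 with SmoM2 alone and 3.74, 3.84 and 4.52 in controls (1.70 ± 0.49, adjusted p = 0.0935). Immediate-early and dissociation stress genes, which handling of the tissue also moves, had a median of −0.41 over 20, with 0 calls and 3 lower and 0 higher at an unadjusted p under 0.05. Fos was at 9.53 and 13.03 with β-catenin loss and 12.66, 13.49 and 13.59 with SmoM2 alone (adjusted p = 0.208), and Nr4a1 differed by −2.09 ± 0.76 (adjusted p = 0.178). In the Notch pathway 0 of 17 passed, 3 were lower and 1 higher at an unadjusted p under 0.05, and the median was −0.11. The ligand Jag2 differed by 1.07 ± 0.27 (adjusted p = 0.0616) and the target Hes1 by −0.87 ± 0.26 (adjusted p = 0.111). The other probe set of Jag2, of near equal mean signal (8.92 against 9.07), had the opposite sign (−0.39). Of 23 sterol and fatty acid synthesis genes, Scd2, a stearoyl-CoA desaturase, fell (−1.72 ± 0.39, adjusted p = 0.0452), 2 were lower and 1 higher at an unadjusted p under 0.05, and the median was −0.04.

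Markers of other cell types had 0 calls apart from the sebaceous list. Leukocyte genes had a median of −0.47 over 18, with 4 lower and 0 higher at an unadjusted p under 0.05 (10.6% and 6.57% of all genes). Their list means were 5.18 and 6.03 with β-catenin loss against 5.61, 6.29 and 6.61 with SmoM2 alone. Ptprc, which defines leukocytes, was at 3.78 and 5.32 against 4.05, 4.49 and 6.13. H2-Ab1, a class II antigen-presenting chain, did not overlap, at 5.29 and 7.33 with β-catenin loss, 7.49, 8.45 and 9.14 with SmoM2 alone and 6.10, 7.26 and 8.36 in controls (−2.05 ± 0.77, adjusted p = 0.193). Cd14, a lipopolysaccharide co-receptor, did not overlap either, at 5.95 and 6.05 with β-catenin loss against 6.50, 6.77 and 6.43 with SmoM2 alone (−0.57 ± 0.23, adjusted p = 0.233). Melanocyte genes had a median of −0.73 over 12, with 1 lower and 1 higher at an unadjusted p under 0.05. In sign, 11 were lower and 1 higher. On the lower side 7 did not overlap and on the higher side 1, beside 17.6% and 11.1% of all genes. List means were 5.65 and 5.54 with β-catenin loss against 5.97, 5.97 and 7.18 with SmoM2 alone. Dct, a pigment enzyme, was at 5.46 and 5.93 with β-catenin loss, 7.78, 7.21 and 9.52 with SmoM2 alone and 8.58, 11.27 and 9.81 in controls (−2.48 ± 0.94, adjusted p = 0.2). Gpnmb, also made in macrophages, was the 1 higher member, at 8.85 and 8.13 against 6.10, 6.22 and 7.31 (adjusted p = 0.21). Endothelial genes (8 tested, median −0.24), Merkel cell genes (7, −0.05) and skeletal muscle genes (7, −0.08) had low mean signals, 5.70 and 5.22, 5.30 and 4.90, and 5.31 and 5.09 with β-catenin loss, and between 5.58 and 5.97, 5.02 and 5.51, and 5.16 and 5.37 with SmoM2 alone. Krt8 and Krt18, keratins of Merkel cells and simple epithelia, differed by −1.15 ± 0.57 (adjusted p = 0.333) and 0.19 ± 0.59 (adjusted p = 0.905). The plot of gene lists sets all medians beside that of all genes.

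**Figure D4:**
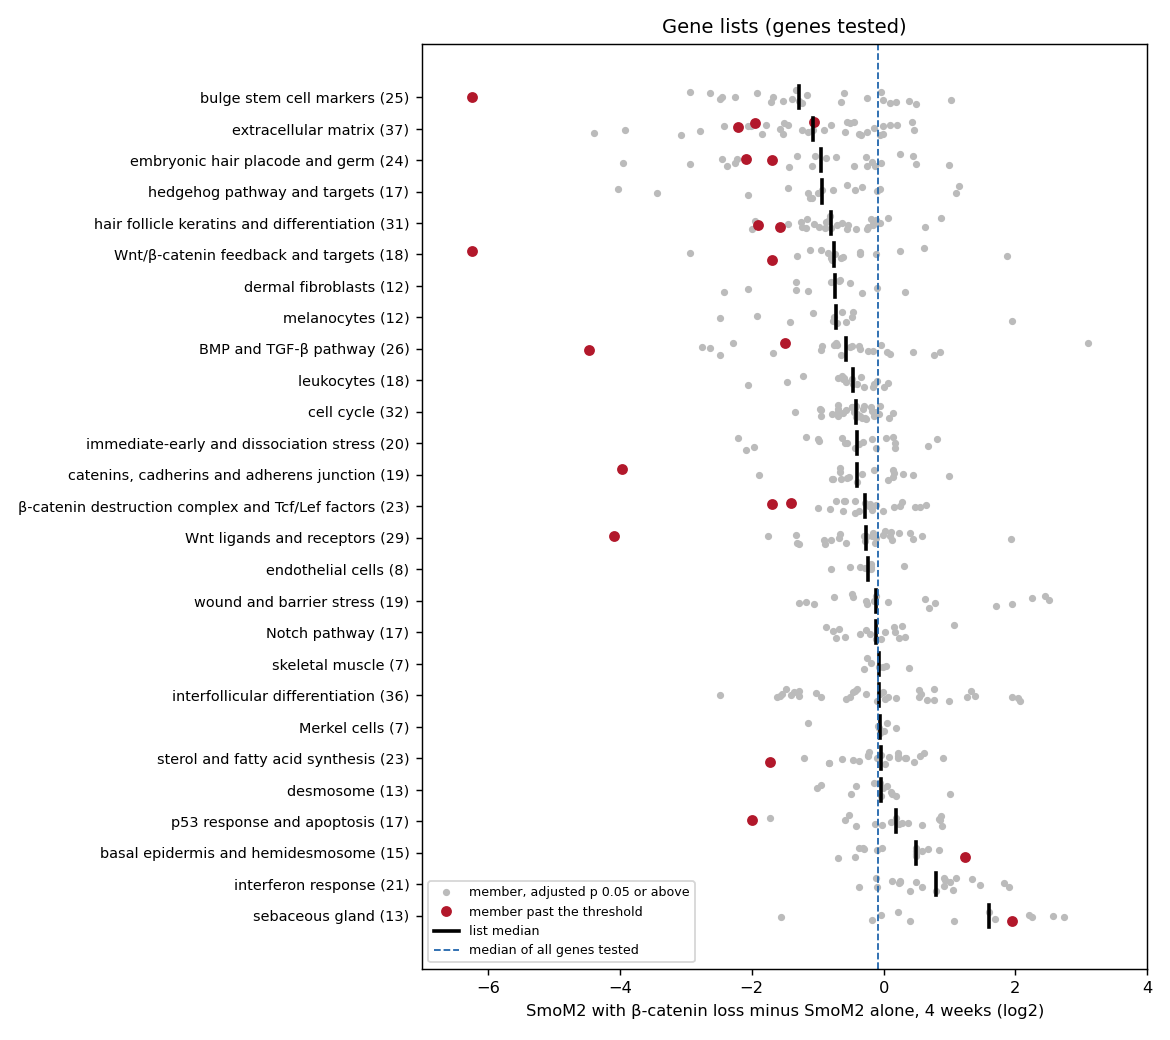
Differences between SmoM2 with β-catenin loss and SmoM2 alone at 4 weeks (horizontal axis, log2) for the members of 27 gene lists (vertical axis, number of genes tested in brackets), with list medians as black bars, genes past an adjusted p of 0.05 in red and the median of all genes, −0.09, as a dashed line. Medians ran from −1.29 for bulge markers to 1.59 for sebaceous gland genes.

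A last comparison asked how genes that mark the later SmoM2 programme behaved. Genes were chosen by SmoM2 at 10 weeks against controls (adjusted p under 0.05 and at least 2-fold), which gave 80 that rose (0.56% of genes tested) and 19 that fell (0.133%). None of the arrays that chose them is among the 5 compared, but 1 model gave the spread of both comparisons, so genes of low spread are favoured in both. Of the 80, 73 were lower with β-catenin loss than with SmoM2 alone at 4 weeks and 7 higher. The median difference was −1.42, with quartiles of −2.04 and −0.80, beside −0.09 for all genes. In 64 the arrays did not overlap on the lower side and in 3 on the higher, beside 17.6% and 11.1% of all genes. By limma 26 fell and 0 rose, beside 1.58% and 0.644% of all genes. The median signal of the 80 was 5.71 and 6.12 with β-catenin loss, 7.75, 8.27 and 7.57 with SmoM2 alone and 5.70, 5.38 and 5.58 in controls, and both replicates with β-catenin loss gave a like median difference, −1.55 and −1.30. The controls took part in choosing the genes, which favours low control signals, so the control medians are a description. Between arrays of the same number, added as an alternative after the data were seen, the median difference was −1.50 for number 1 and −1.47 for number 2.

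Wif1, Synpo2, Pcdh20 and Lef1 were among the 26 that fell. Gm5084, a predicted gene, was at 4.30 and 4.33 with β-catenin loss and 7.78, 9.01 and 6.84 with SmoM2 alone (−3.56 ± 0.64, adjusted p = 0.0246). Crispld1, a secreted cysteine-rich protein, was at 4.39 and 5.21 with β-catenin loss and 8.41, 7.91 and 7.63 with SmoM2 alone (−3.19 ± 0.48, adjusted p = 0.0122). Chst11, which sulfates chondroitin, was at 5.28 and 6.001 with β-catenin loss and 8.69, 9.23 and 7.59 with SmoM2 alone (−2.86 ± 0.52, adjusted p = 0.0261). The 7 that were higher, Rpl27a, Axl, 9130008F23Rik, Cwh43, Cfap69, 2610524H06Rik and Lrrc72, differed by 0.02 to 0.72 and did not pass. The 19 genes that fell at 10 weeks had a median of 0.06, with 8 lower and 11 higher, and this sign turned without replicate 1 of β-catenin loss (−0.0048) and without replicate 2 (−0.0765) or 3 (−0.0337) of SmoM2 alone. Of them 1 rose, Dlk2, a homologue of the Notch-related protein Dlk1, at 8.82 and 8.52 with β-catenin loss, 7.62, 7.66 and 7.68 with SmoM2 alone and 9.11, 9.03 and 9.10 in controls (1.02 ± 0.23, adjusted p = 0.0458). Krt84 and Krt36, given above, belonged to this set.

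**Figure D5:**
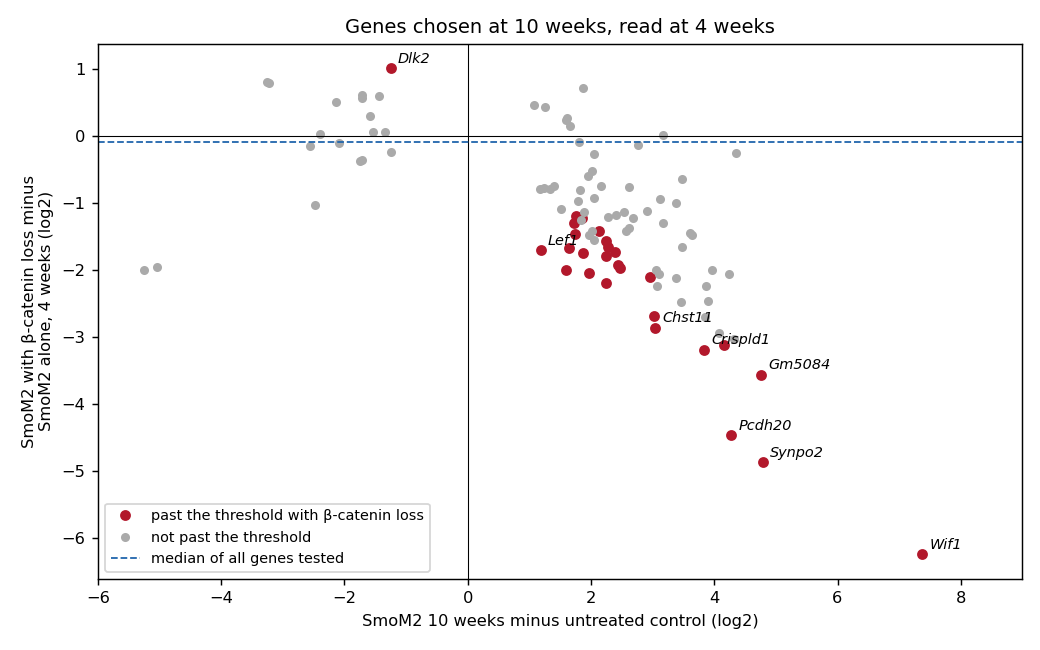
Genes chosen by their change between SmoM2 at 10 weeks and controls (horizontal axis, log2), plotted against the difference between SmoM2 with β-catenin loss and SmoM2 alone at 4 weeks (vertical axis, log2), with genes past an adjusted p of 0.05 at 4 weeks in red. Of the 80 genes on the right 73 lay below 0, and the 19 on the left spread around 0.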

How the data were processed

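RNA of sorted tail epidermis cells was read on Affymetrix arrays, from 100 ng of total RNA with a 3′ amplification kit per the labels' protocols. The values are log2 signals per probe set, as the authors deposited them in 1 table of 16 arrays. The submitters' processing notes name R 2.14.0; how background was corrected and probe sets were normalized and summarised was not given in the sources used here. No further scaling was applied. Genes were named through GEO's platform annotation, using probe sets with 1 symbol, and for each of 18194 genes the probe set with the highest mean over the 16 arrays was taken. Genes needed a signal over their array's 40th percentile on 2 or more arrays to be tested, which left out 3908 genes and kept 14286.

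Group means were fitted over the 14 IFE arrays with limma 3.58.1 in R 4.3.3 (lmFit and eBayes, 11.6 degrees of freedom), with Benjamini-Hochberg adjustment of p-values across the genes tested and a threshold of 0.05. Precision is limited by how few arrays there are. The fit was tested on simulated data with known changes. That simulation drew independent noise without structure by replicate number or sex, so it checked the code and not the calls made here. The replicate numbers of the titles were checked as pairs: deviations from group means of same-numbered arrays correlated at −0.05 for number 1 and −0.18 for number 2 across genes, so these arrays were not treated as pairs. Between the other groups with replicates 1 to 3, same-numbered arrays correlated at 0.34 to 0.70.

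Named genes were, of those that passed with no overlap between arrays, the 12 that rose and the 12 that fell most, then from each list up to 4 members that passed (if none did, the 2 with the lowest adjusted p), and a set of Wnt, hedgehog, follicle and epidermis genes. Of 101 genes so named, 37 passed. The comparison, the gene lists and this set were chosen with earlier results of these data known. Alternatives were the spread from the 5 arrays alone, other filters, quantile normalization, the mean of a gene's probe sets, a trended and robust fit, array weights, replicate blocks, terms for Y-linked or Xist signal, and leaving out each array. Promoter windows are from RefSeq, GRCm38.p6.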

Additional observations from a re-analysis of the deposited data

How the results depend on the processing

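The counts of calls moved with the estimate of spread and with single arrays. Against 226 genes lower and 92 higher, the 5 arrays alone gave 15 and 2, quantile normalization 108 and 101, array weights 74 and 28, the Y-linked term 105 and 39 and the Xist term 105 and 47. The mean of a gene's probe sets gave 227 lower but 144 higher. The replicate block gave 755 and 592 over the IFE arrays and 442 and 263 over the 5 arrays, and the block by experiment number 716 and 465. These blocks put the arrays with β-catenin loss beside same-numbered arrays that they did not resemble, whereas the numbers did group controls and SmoM2 arrays at 1 and 4 weeks. Leaving out 1 array gave 0 to 178 lower and 2 to 89 higher, the fewest without replicate 1 of β-catenin loss, where the lone array was taken to vary as other groups did. The median of the 80 genes that rose at 10 weeks, −1.42, was −1.13 with the mean of probe sets and −1.55 to −1.30 with 1 array left out. The median of the 19 that fell, 0.06, was 0.13 with the replicate block, 0.18 with the Y-linked term and 0.19 with the Xist term. It turned to −0.0337 with the block over 5 arrays, −0.0048 without replicate 1 of β-catenin loss, −0.0765 without replicate 2 of SmoM2 alone and −0.0337 without its replicate 3, in a range of −0.0765 to 0.197 with 1 array left out. Between arrays of the same number it was −0.0893 for number 1 and 0.276 for number 2, so its direction is not settled. Of 627 alternative values of the 37 named genes that passed, 448 stayed past the threshold and 179 did not, and 0 changed sign; 18 sign changes in 8 other named genes were of values that did not pass. Signals near the array median limit what a fold can show.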

Other observations

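Some genes that passed lie outside the lists and the naming rule and were chosen after their values were seen. Evc2, a ciliary partner of Smoothened, was at 6.83 and 7.64 with β-catenin loss, 8.62, 8.57 and 8.19 with SmoM2 alone and 7.73, 7.51 and 7.27 in controls (−1.22 ± 0.28, adjusted p = 0.0452, limma). Evc, its binding partner, was at 4.93 and 6.47 with β-catenin loss, 7.71, 7.67 and 7.21 with SmoM2 alone and 6.71, 6.16 and 6.37 in controls (−1.82 ± 0.42, adjusted p = 0.04997). Invs, inversin, was at 4.28 and 5.19 with β-catenin loss, 6.43, 6.38 and 6.40 with SmoM2 alone and 6.18, 5.72 and 6.12 in controls (−1.66 ± 0.27, adjusted p = 0.0154). Dzip1, a protein of the ciliary base, was at 4.19 and 6.41 with β-catenin loss, 8.20, 7.41 and 7.60 with SmoM2 alone and 6.64, 6.37 and 7.06 in controls (−2.44 ± 0.51, adjusted p = 0.0391). For Evc2, Evc, Invs and Dzip1 alike, replicate 1 of β-catenin loss was the lower. Hhipl1, a relative of Hhip, was at 5.42 and 5.62 with β-catenin loss, 8.23, 8.07 and 6.95 with SmoM2 alone and 5.33, 5.29 and 4.93 in controls (−2.23 ± 0.45, adjusted p = 0.035), close to controls with β-catenin loss. Smad3, which carries the TGF-β signal into the nucleus, was at 8.36 and 8.72 with β-catenin loss, 10.03, 9.83 and 9.52 with SmoM2 alone and 8.62, 8.47 and 8.69 in controls (−1.25 ± 0.27, adjusted p = 0.0431). Tet1, an enzyme that oxidises methylcytosine, was at 4.59 and 4.57 with β-catenin loss, 6.96, 6.51 and 6.96 with SmoM2 alone and 5.47, 5.27 and 5.23 in controls (−2.23 ± 0.31, adjusted p = 0.0122), and Frem2, a basement membrane protein of epidermis, at 6.08 and 7.50 with β-catenin loss, 10.28, 9.99 and 9.92 with SmoM2 alone and 8.33, 9.48 and 8.40 in controls (−3.27 ± 0.48, adjusted p = 0.0122).

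Among genes that rose, Fkbp5, a chaperone partner of steroid receptors, was at 12.002 and 11.98 with β-catenin loss, 10.15, 9.73 and 9.64 with SmoM2 alone and 8.78, 10.95 and 9.79 in controls (2.15 ± 0.48, adjusted p = 0.0452). Zbtb16, a zinc finger factor, was at 10.13 and 10.08 with β-catenin loss, 7.91, 8.51 and 6.95 with SmoM2 alone and 7.91, 9.43 and 7.84 in controls (2.31 ± 0.51, adjusted p = 0.0447), and Klf9, a Krüppel-like factor, at 12.46 and 12.18 with β-catenin loss, 10.28, 11.26 and 11.04 with SmoM2 alone and 11.17, 11.71 and 11.24 in controls (1.46 ± 0.29, adjusted p = 0.0347). Each of the 3 had both arrays with β-catenin loss above every control. Errfi1, an inhibitor of epidermal growth factor receptors, was at 12.05 and 10.86 with β-catenin loss, 9.55, 9.28 and 9.28 with SmoM2 alone and 9.75, 10.07 and 9.72 in controls (2.08 ± 0.37, adjusted p = 0.0235), and Spry2, an inhibitor of receptor tyrosine kinase signalling, at 9.94 and 9.52 with β-catenin loss, 8.28, 8.84 and 8.34 with SmoM2 alone and 7.85, 8.41 and 8.42 in controls (1.24 ± 0.26, adjusted p = 0.0385). Fgfr3, a fibroblast growth factor receptor, was at 11.60 and 11.40 with β-catenin loss, 9.68, 9.13 and 9.72 with SmoM2 alone and 10.22, 11.38 and 10.995 in controls (1.99 ± 0.35, adjusted p = 0.0235). Cxcl1, a neutrophil chemokine, was at 10.55 and 9.50 with β-catenin loss, 7.50, 8.11 and 8.07 with SmoM2 alone and 8.35, 7.76 and 8.03 in controls (2.13 ± 0.36, adjusted p = 0.0204).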
